A study of Drosophila melanogaster with 4 samples.

Results

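Sugar transporters of the SLC2 type are membrane proteins that let sugars cross the plasma membrane along their gradient. In insects the main circulating sugar is trehalose, which the adipose tissue (fat body) makes and releases and which other tissues take up and split into glucose. Oenocytes are hepatocyte-like cells of the abdominal wall that make very-long-chain fatty acids and cuticular hydrocarbons, and the adipose tissue is the main store of lipid and glycogen. Described here are 10 transporter genes of this family out of 13955 genes in the deposited tables: *CG10960* (current symbol *nebu*), *CG4797* (current symbol *pippin*), *CG7882*, *Tret1-1*, *Tret1-2*, *sut1*, *sut2*, *sut4*, *Glut1* and *CG1213*. They were taken from a fixed list of gene names, set with earlier results of these data known, and all 10 were present in the tables of both genotypes. Each was followed over the 16 deposited clusters of the control nuclei, numbered 0 to 15, and then between the genotypes.

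The data came from single-nuclei RNA-sequencing (10x Genomics) of the abdominal cuticle of adult males, in which a count is a unique molecular identifier (UMI), standing for a captured RNA molecule. Flies of both groups were w1118 and heterozygous for the oenocyte driver PromE-GAl4 together with tub-Gal80ts, a temperature-sensitive repressor of Gal4. The control, oenots>EGFP, carried UAS-2xEGFP/+ beside these, and the other group, oenots>tsc1,tsc2, carried UAS-Tsc1 with UAS-Tsc2/+. Tsc1 and Tsc2 together inhibit TOR signaling. Each group had 2 libraries, each from 40 pooled abdomens without intestines and reproductive organs, and flies were reared at 18 °C and held at 29 °C for 4 days. Both replicates of a group are pools of many flies, and the study describes the 2 control libraries as biological replicates of 40 animals each. Nothing states that the replicates of a group came from separate crosses or days. The p-values thus measure the spread between these pools, and part of that spread may be technical. The driver was used for oenocytes, but the study notes that it is also active in the male accessory glands, so expression of the transgenes was not limited to oenocytes.

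The tables held 7213 and 8067 control nuclei and 7594 and 2267 oenots>tsc1,tsc2 nuclei, with 3256566, 3924035, 3972281 and 1449112 UMIs and medians of 372 to 468 UMIs per nucleus. Between 15 and 77 cell barcodes were shared by any pair of libraries. Adipose tissue is the deposited clusters 0, 2, 4 and 8, and oenocytes are the clusters 1 and 6. In cluster 0, 6 of 9 adipose markers were at least 2-fold above the other nuclei, against 1 or 2 of 9 in clusters 2, 4 and 8, whose summed level of these markers was nevertheless above that of every other cluster. Of 7 measured oenocyte markers, 6 passed in cluster 1 and 5 in cluster 6, while *Cyp4g1*, a defining oenocyte gene, was listed at 0 UMIs in all of the clusters. Cluster 5 passed for 11 of 11 muscle markers. Cluster 3 passed for 6 of 11 muscle, 5 of 7 cuticle and 3 of 3 trachea markers and is called by its number. Cluster 9 passed for 4 of 6 Malpighian tubule markers (*Mur18B*, *Uro*, *NaPi-T* and *Irk3*) and is called Malpighian tubule-like.

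The deposited counts had a feature that bears on the most abundant transporters. After the authors' correction for free RNA, no nucleus of any library held exactly 1 UMI of *CG10960*, *Tret1-1* or *CG1213*. The smallest count in a nucleus was 2 for *CG10960* and for *CG1213* in each library, while for *Tret1-1* it was 3 in both control libraries and 2 in both oenots>tsc1,tsc2 libraries. The low counts that are absent were therefore not the same in the libraries that are compared. Of the nuclei with *CG4797*, 10 of 189, 11 of 305, 24 of 306 and 25 of 83 held 1 UMI in oenots>EGFP replicates 1 and 2 and oenots>tsc1,tsc2 replicates 1 and 2, so that single counts were most common in the smallest library. For *sut1*, *Glut1*, *CG7882*, *Tret1-2*, *sut2* and *sut4*, single counts were the most frequent in every library. The same was seen beyond these genes, since 856 of 2421 (35.4%), 848 of 2903 (29.2%), 756 of 3398 (22.2%) and 639 of 1052 (60.7%) of the genes with at least 200 UMIs in the respective library had no nucleus at 1 UMI. Levels, shares of nuclei or fold changes of these 4 transporters are therefore also given with counts under a common floor set to 0 in every library (a floor of 4 UMIs per nucleus for *CG10960* and *Tret1-1*, 3 for *CG1213* and 2 for *CG4797*).

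**Figure D1:**
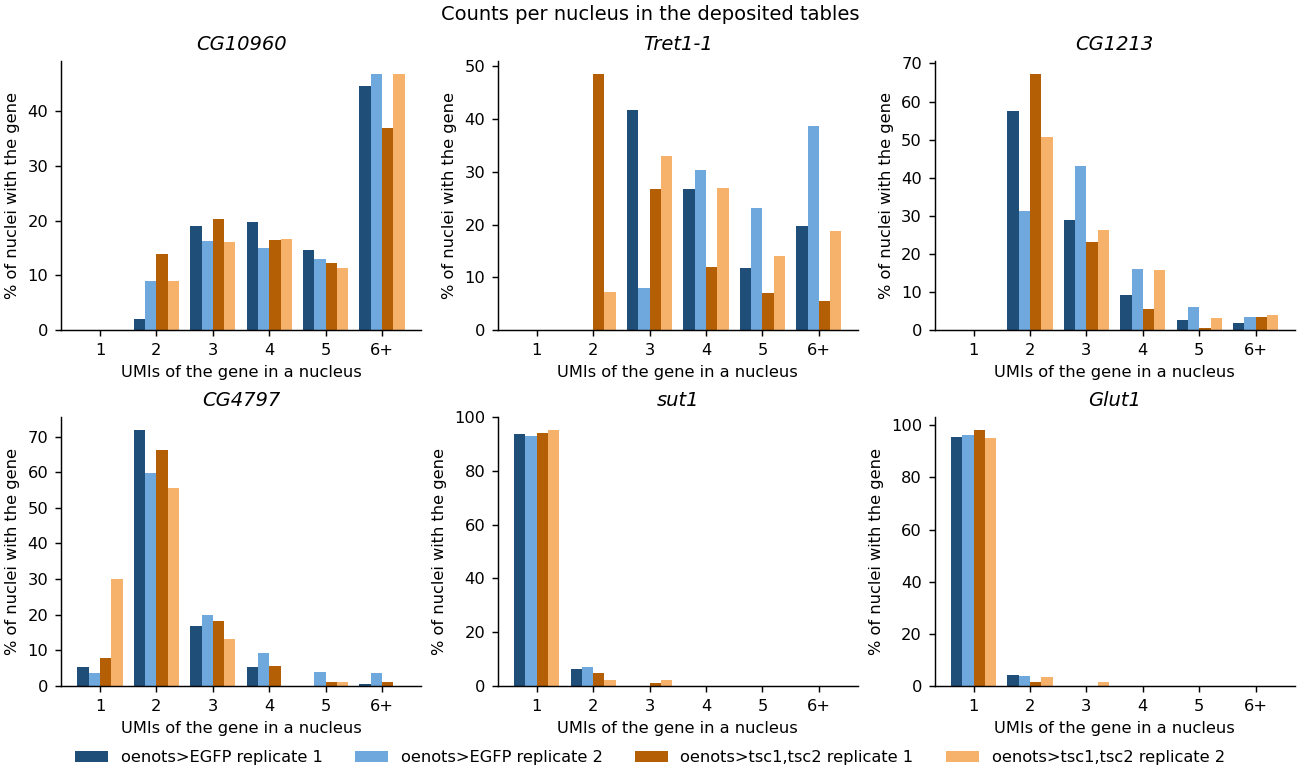
Share of the nuclei holding a gene (y axis, %) that held 1, 2, 3, 4, 5 or at least 6 UMIs of it (x axis), in 4 libraries given by color. No bar stands at 1 UMI for *CG10960*, *Tret1-1* and *CG1213*, the bars at 2 UMIs of *Tret1-1* belong to the oenots>tsc1,tsc2 libraries, and nearly all nuclei with *sut1* or *Glut1* stand at 1 UMI.

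The transporters differed in where their RNA was found in the control. *CG10960* and *Tret1-2* were highest in adipose nuclei, *CG4797* and *sut1* in oenocytes, and *CG7882* in the Malpighian tubule-like cluster 9. *CG1213* was lower in oenocytes than in the other main tissues, and its level in adipose tissue overlapped that of another main tissue. *Tret1-1* was about equally high in adipose tissue and oenocytes, and *Glut1* differed little over the main tissues. Levels are in CPM, the share of a gene in all UMIs of the same tissue and library, scaled to 1e6. They are not directly comparable between genes, because a UMI counts captured molecules only and capture may differ between genes. The clusters were built from the same nuclei and genes, so the levels are described without a test.

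*CG10960*, a member with no well-known substrate, had the most control UMIs of the 10 genes (40634). It lies at 3L from 12824880 to 12843106 on the minus strand (Release 6 of the genome) with 14838 of its 18227 bp in introns. Adipose nuclei held 88.7% of its UMIs, although they made up 58.0% of the nuclei. Its level in adipose tissue was 8998 CPM in replicate 1 and 9444 CPM in replicate 2 (9221 ± 316, SD, n = 2), against 1102 and 826 CPM in oenocytes, 966 and 1306 CPM in cluster 3 and 1660 and 1197 CPM in cluster 5. Adipose tissue was thus above the other tissues in both libraries, by 8.16-fold and 11.4-fold over oenocytes. Cluster 5 was above oenocytes in both libraries, while cluster 3 overlapped each of them. With counts under 4 UMIs per nucleus set to 0, adipose tissue had 8089 and 8423 CPM and oenocytes had 976 and 714 CPM, and 49.0% and 53.4% of adipose nuclei against 6.19% and 5.27% of oenocyte nuclei held that many.

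Within adipose tissue, *CG10960* was about equal in clusters 0 and 8 (10919.8 ± 42.4 and 10674 ± 835 CPM), lower in cluster 2 (8713 ± 609 CPM) and lowest in cluster 4 (4281 ± 859 CPM). Counted as nuclei, 61.9% and 71.3% of adipose nuclei held its RNA, or 58.8% and 66.6% after every nucleus was thinned to 200 UMIs. In oenocytes, 7.99% and 7.21% of nuclei held it (6.79% and 5.82% thinned), at median depths of 354 and 434 UMIs against 356 and 402 in adipose tissue by the same tissue calls used for genotypes. Free RNA can give such a share. *CG10960* measured 17.6 to 44.2 UMIs per 100 UMIs of *apolpp*, the adipose lipoprotein gene, over the 16 clusters of both libraries, and the part of free RNA in its signal outside adipose tissue was not tested. In the clusters 7 and 9 to 15, its level was higher in replicate 2 each time, for example 1296 and 4487 CPM in cluster 7 and 878 and 5082 CPM in cluster 9. Over these clusters together *apolpp* was higher in replicate 2 as well, at 4395 and 14866 CPM.

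*Tret1-1* encodes a facilitated trehalose transporter, and *Tret1-2* is its neighbour and paralogue on 2R, 1152 bp away. Both lie on the plus strand inside *Roc2*, which is transcribed the other way, and the sources used here do not say if UMIs were assigned by strand. In adipose nuclei *Tret1-1* measured 1764 and 2575 CPM (2170 ± 574), in oenocyte nuclei 2197 and 2477 CPM (2337 ± 198), and these ranges overlapped. Cluster 5 was lower, at 1021 and 668 CPM, and cluster 3 lowest, at 318 and 373 CPM. Its ratio to *apolpp* varied, with 4.81 to 120.3 UMIs per 100 *apolpp* UMIs over clusters 0 to 7.

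The oenocyte level of *Tret1-1* came from cluster 1 of the oenocyte clusters. Cluster 1 had 2720 and 3012 CPM and cluster 6 had 280 and 516 CPM, a 9.72-fold and a 5.83-fold difference in the same direction in both libraries. With counts under 4 UMIs per nucleus set to 0, the same clusters stood at 2129 and 2997 CPM and at 236 and 516 CPM. In nuclei, 14.3% and 19.8% of cluster 1 and 3.24% and 6.39% of cluster 6 held 4 or more UMIs of it. The separation of these clusters was thus there with either way of counting. Within adipose tissue, *Tret1-1* was 2089 and 2817 CPM in cluster 0, 1154 and 1869 CPM in cluster 2 and 1661 and 2332 CPM in cluster 4.

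*Tret1-2* had 137 control UMIs, of which 116 (84.7%) were in adipose nuclei. Its level there was 19.9 and 37.1 CPM, against 7.89 and 3.69 CPM in oenocytes, 4.00 and 6.32 CPM in cluster 3 and 6.59 and 6.02 CPM in cluster 5. Adipose tissue was above each of these in both libraries, while the lower ones, with 2 to 8 UMIs each in total, were not separated. The neighbouring paralogues therefore had different tissue profiles, *Tret1-1* with a high level in oenocyte cluster 1 and *Tret1-2* with 7 UMIs in it.

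*CG4797* was the transporter with the most one-sided oenocyte level. It lies at 2R from 23812185 to 23818327 on the minus strand, where an antisense RNA, asRNA:CR44807, overlaps it. Of its 1231 control UMIs, 909 (73.8%) were in oenocytes. Oenocytes had 437 and 777 CPM (607 ± 240, SD, n = 2), adipose tissue 68.1 and 63.5 CPM, cluster 3 22.0 and 33.7 CPM and cluster 5 65.9 and 6.02 CPM. Oenocytes were above adipose tissue by 6.42-fold and 12.2-fold. Cluster 3 was below adipose tissue in both libraries, while cluster 5 overlapped both of these. Both oenocyte clusters carried it, with 478 and 865 CPM in cluster 1 and 287 and 453 CPM in cluster 6, so that cluster 1 was the higher in both libraries, by 1.66-fold and 1.91-fold.

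Of oenocyte nuclei, 7.86% and 13.5% held *CG4797* RNA (6.39% and 9.76% thinned to 200 UMIs), against 1.37% and 1.36% of adipose nuclei (0.995% and 0.868% thinned). Over pooled control nuclei, the shares were 10.8% of oenocytes (95% Wilson interval 9.78 to 11.95%) and 1.37% of adipose nuclei (1.14 to 1.63%), and the intervals cover counting error only. Single nuclei held up to 11 UMIs in oenocytes and up to 6 in adipose tissue. The oenocyte nuclei with this RNA all held at least 2 UMIs of it. Among the small clusters, cluster 11 had 48.1 and 689 CPM from 2 and 7 UMIs, and no value of it is read.

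*sut1* was the other transporter with its highest level in oenocytes. It lies on 2R, 244 bp from *sut2*, and overlaps *slv* of the opposite strand (itself a sugar transporter gene of another family) over 382 bp. It measured 109 and 89.7 CPM in oenocytes (99.3 ± 13.5), 29.5 and 26.4 CPM in adipose tissue, 34.0 and 46.3 CPM in cluster 3 and 46.1 and 18.0 CPM in cluster 5. Oenocytes were above the other tissues in both libraries, and cluster 3 was above adipose tissue in both, while cluster 5 overlapped each of the lower tissues. Of the oenocyte clusters, cluster 6 (118 and 132 CPM) was above cluster 1 (106 and 78.2 CPM), by 1.11-fold and 1.69-fold. In nuclei, 4.26% and 4.12% of oenocytes held it, against 1.17% and 1.18% of adipose nuclei, or 2.53% and 1.88% against 0.448% and 0.599% after thinning.

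*CG1213* had a pattern of its own, high outside oenocytes. It measured 608 and 757 CPM in adipose tissue (682 ± 105), 486 and 664 CPM in cluster 3, 415 and 451 CPM in cluster 5 and 67.8 and 61.4 CPM in oenocytes. Adipose tissue and cluster 3 overlapped, and oenocytes were below each of the other tissues in both libraries, 8.96-fold and 12.3-fold below adipose tissue. Its ratio to *apolpp* ranged from 1.54 to 16.2 UMIs per 100 over clusters 0 to 7, with the highest value in cluster 3. With counts under 3 UMIs per nucleus set to 0, the levels were 297 and 593 CPM in adipose tissue, 410 and 584 CPM in cluster 3, 323 and 391 CPM in cluster 5 and 29.97 and 58.98 CPM in oenocytes, so that adipose tissue overlapped both of the former.

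*Glut1*, the fly homologue of the basal mammalian glucose transporter, differed little over the main tissues. Its 459 control UMIs gave 69.9 and 59.5 CPM in adipose nuclei, 64.7 and 61.4 CPM in oenocyte nuclei, 60.01 and 54.8 CPM in cluster 3 and 85.6 and 30.1 CPM in cluster 5. Oenocytes were above cluster 3 by a small margin in both libraries, and all other pairs of these tissues overlapped. Adipose nuclei held 54.2% of its UMIs and 54.3% of the UMIs of all genes. The 20 annotated transcripts of *Glut1* were not told apart.

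*CG7882* had its highest level in the smallest of the tissues that could be named. Cluster 9, with 124 nuclei, had 1593 and 987 CPM, while no other cluster exceeded 66.1 CPM in a library. It held 83 of the 172 control UMIs, in 43 nuclei and with up to 8 UMIs in a nucleus, whereas the UMIs elsewhere were mostly single, with 42 in adipose tissue, 18 in oenocytes and 16 in cluster 3. An antisense RNA, asRNA:CR46269, overlaps *CG7882*. *sut2* and *sut4* were close to the limit of detection, with 20 and 23 control UMIs. Of the former, 9 were in cluster 3 and 1 was in oenocytes, and of the latter, 5 were in the 86 nuclei of cluster 13 (62.4 and 178 CPM), a cluster not named here. *sut4* lies inside *CG2269* of the opposite strand.

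**Figure D2:**
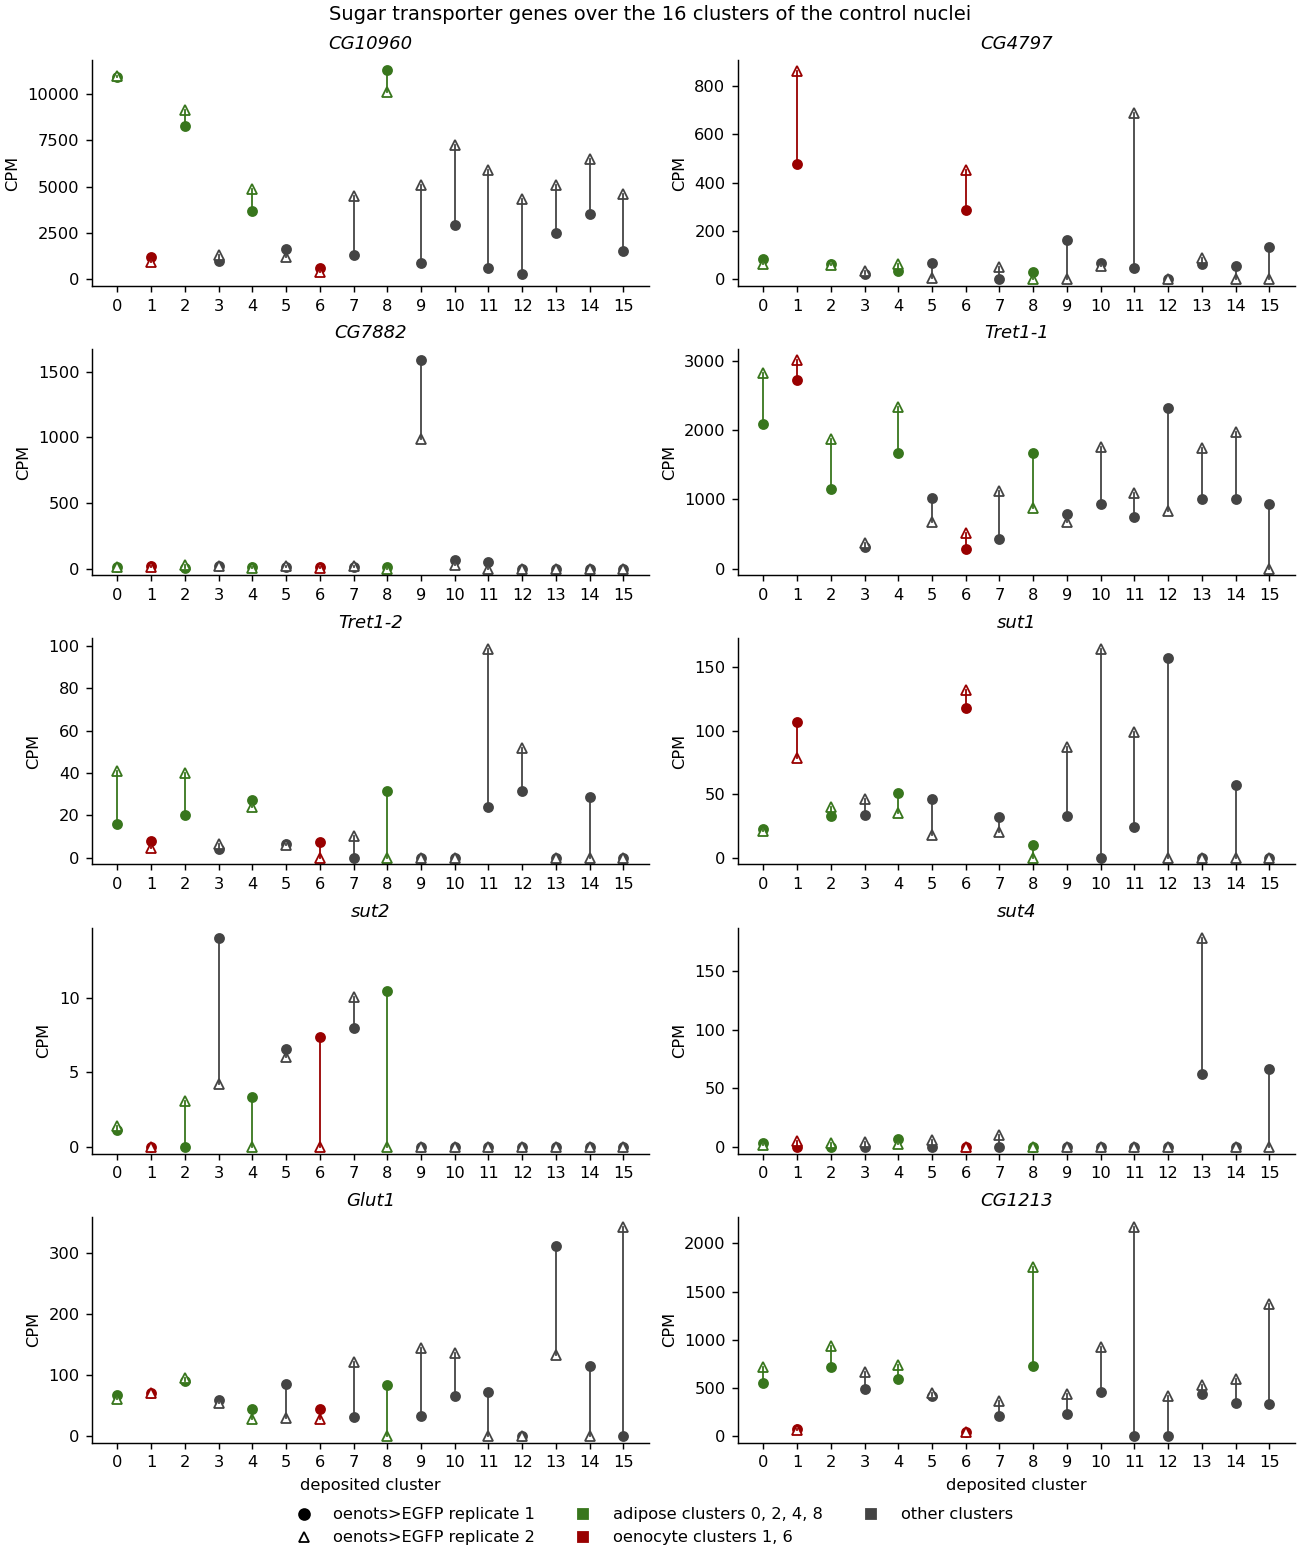
Level of the 10 transporter genes (y axis, CPM, linear, a scale per gene) in the 16 deposited clusters (x axis) of the control, with a circle for replicate 1, a triangle for replicate 2 and a line joining them. Adipose clusters are green and oenocyte clusters red: *CG10960* reached 10919.8 CPM (the mean) in cluster 0, *CG4797* stood out in clusters 1 and 6, *Tret1-1* was high in cluster 1 and low in cluster 6, and *CG7882* stood out in cluster 9. For *CG10960*, replicate 2 was above replicate 1 in cluster 7 and in each of the clusters 9 to 15.

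The profiles over clusters were also set beside those of all 4925 genes with at least 200 control UMIs, as Pearson's r of log2(CPM + 10) over the 16 clusters. The clusters share 2 libraries and differ in depth, so r is a description. Shared values of 0 in small clusters enter it. *sut1* and its matches below had 0 CPM in clusters 13 and 15 (86 and 43 nuclei). *CG4797*, *Glut1* and their matches had 0 CPM in cluster 12 (88 nuclei). The weight of these values in r was not tested. *CG10960* was most like *Egfr*, *path* and *bru1* (0.98 each), of which *path* encodes an amino acid transporter. *CG4797* was most like *nAChRalpha7* (0.89), *Sfxn2* (0.86) and *CG14893* (0.85), and *sut1* like *Sec61gamma* (0.91), *PSMG1* (0.89) and *Srp68* (0.86), of which *Sec61gamma* and *Srp68* belong to the machinery that moves proteins into the endoplasmic reticulum. *Tret1-1* had weaker matches in *DOR* (0.75), *CG4629* (0.74) and *Met* (0.74), *Glut1* in *udd* (0.84), *rogdi* (0.81) and *Sirt1* (0.80), and *CG1213* in *Btk29A* (0.88), *cpx* (0.87) and *CRMP* (0.86). Among the transporters themselves, *CG10960* and *CG1213* had the highest r (0.76), and *sut1* and *CG1213* the lowest (-0.57).

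The control and oenots>tsc1,tsc2 libraries were deposited as separate data sets, which the study joined with a batch correction. Differences between the genotypes therefore cannot be told apart from differences between these data sets. To compare the genotypes, each nucleus of all 4 libraries was given the class held by most of its 20 nearest control nuclei, with the 10 transporters left out. For control nuclei the tissue given in this way was the deposited one for 99.1% of adipose nuclei, 99.0% of oenocytes, 89.1% of cluster 3, 87.5% of cluster 5 and 62.1% of cluster 9. UMIs were summed per library and tissue and tested over all genes. In these bulk-like sums, fewer nuclei with the RNA and less RNA per nucleus cannot be told apart, and shares of nuclei are given for this reason where they bear on the result.

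In oenocytes, 6 of the 10 transporters had enough counts to be tested. *CG4797* fell in oenots>tsc1,tsc2, *CG10960*, *Tret1-1*, *CG1213* and *sut1* had lower values that did not pass the test, and *Glut1* lay near no difference. The count was 1 of 6 called (edgeR's quasi-likelihood test, Benjamini-Hochberg adjusted p under 0.05), against 204 of 6294 genes, or 3.24%, called among all genes tested and 1.84% called lower. The median log2 fold change of the 6 was -1.14, against 0.01 over all genes. The 6 include *CG10960* and *CG1213*, which in the control were lower in oenocytes than in adipose tissue. The part of free RNA in this median was not tested.

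*CG4797* had 277 and 645 UMIs in control oenocytes and 92 and 53 UMIs in oenots>tsc1,tsc2 oenocytes. In CPM this was 425 and 775 CPM against 145 and 153 CPM. The groups did not overlap, and the control libraries differed from each other more than the oenots>tsc1,tsc2 libraries did. With 2 libraries per group, non-overlap is frequent without any difference, and its share over all genes was not counted. The log2 fold change was -2.08 (SE 0.43, 95% interval -3.08 to -1.08), a 4.23-fold lower level, with an adjusted p of 0.0479 by edgeR with Benjamini-Hochberg adjustment. This p lay just under the threshold, and the call was lost without oenots>EGFP replicate 2 (log2 fold change -1.59, adjusted p 0.227), without oenots>tsc1,tsc2 replicate 1 (-1.89, 0.0882) or replicate 2 (-2.32, 0.0766) and with library totals in place of TMM factors (-2.003, 0.0611). It held with tissues from a joint clustering (-2.07, 0.0465). DESeq2 gave -2.12 with an adjusted p of 5.70e-05, and the common floor per nucleus gave -2.16 with 0.0428 in edgeR.

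Shares of nuclei, taken from the same UMIs, differed as well. At least 2 UMIs of *CG4797* were held by 7.70% and 13.6% of control oenocytes and by 3.02% and 3.31% of oenots>tsc1,tsc2 oenocytes. At least 3 UMIs were held by 2.02% and 5.84% against 0.589% and 0.288%. Thinned to 200 UMIs, the shares with any UMI were 6.26% and 9.65% against 2.43% and 2.16%. Both oenocyte classes had non-overlapping groups, with 471 and 858 CPM against 161 and 175 CPM in class 1 and 230 and 436 CPM against 36.4 and 36.9 CPM in class 6.

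Other genes of oenocytes moved in the same sums. The 7 measured oenocyte markers summed to 38216 and 47673 CPM in the control and 20710 and 25396 CPM in oenots>tsc1,tsc2 oenocytes, with *Cyp4g1* at 0 in each library. Their largest contributor, *FASN3*, a fatty acid synthase gene, had 10867 and 18823 UMIs against 1936 and 1729. *CG4797* per 100 *FASN3* UMIs was 2.55 and 3.43 against 4.75 and 3.07, so that these ratios overlapped. The 9 adipose markers summed to 6055 and 3931 CPM against 3415 and 2846 CPM, with *Lsp2* at 0 in 3 of the libraries, and the 6 male tract markers to 437 and 149 CPM against 1120 and 208 CPM. The part of these differences in the result for *CG4797* was not tested.

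*CG10960* had 698 and 670 UMIs in control oenocytes against 273 and 102, with a log2 fold change of -1.46 (SE 0.35) and an adjusted p of 0.0683 by edgeR with Benjamini-Hochberg adjustment. It had non-overlapping groups, as did the adipose markers in the same nuclei. Per 100 *apolpp* UMIs, *CG10960* measured 30.7 and 36.1 in control oenocytes against 36.8 and 23.0, and these ratios overlapped. The part of the adipose markers and of free RNA in the result was not tested. With the common floor the log2 fold change of *CG10960* was -1.502 (adjusted p 0.0646), from 947 and 689 CPM against 353 and 260 CPM. *Tret1-1* had 1406 and 2051 UMIs against 772 and 375 (2155 and 2466 CPM against 1216 and 1083 CPM; log2 fold change -1.08, SE 0.32, adjusted p 0.124). The groups did not overlap, and the lower values were in class 1 (2614 and 2947 CPM against 1334 and 1239 CPM), whereas class 6 overlapped (238 and 491 CPM against 425 and 240 CPM). DESeq2 called both (log2 fold changes -1.51 and -1.12, adjusted p 0.00104 and 0.00810). For *Tret1-1*, nuclei with 4 or more UMIs were 12.8% and 18.0% of control oenocytes and 4.42% and 7.05% of oenots>tsc1,tsc2 oenocytes. The log2 fold change of *Tret1-1* was -1.22 to -0.99 with 1 library left out and -1.85 to -0.99 over all 12 alternatives. The size of this difference thus depended on the processing.

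*CG1213* had 51 and 57 UMIs in control oenocytes against 23 and 11 (log2 fold change -1.19, SE 0.38, adjusted p 0.149 by edgeR with Benjamini-Hochberg adjustment). With the common floor, 1 UMI-holding nucleus per oenots>tsc1,tsc2 library was left against 8 and 17 in the control, and the gene passed (-3.14, adjusted p 0.0434). *sut1* had 72 and 74 UMIs against 40 and 20 (log2 fold change -0.80, SE 0.36, adjusted p 0.307), and *Glut1* had 38 and 52 against 35 and 29 (0.12, SE 0.43, adjusted p 0.930). The 95% interval of *Glut1*, from -0.88 to 1.13, leaves room for a change in either direction.

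*sut2* was too sparse to be tested in oenocytes, and its counts ran the other way. There were 1 and 0 UMIs in 1533 and 1679 control oenocytes and 13 and 4 UMIs in 1358 and 695 oenots>tsc1,tsc2 oenocytes, each in a nucleus of its own. This was 1.53 and 0 CPM against 20.5 and 11.5 CPM, and a count of 0 allows up to 3.61 CPM in that library. The 17 UMIs were in class 1. In adipose tissue, the same gene had 3 and 3 UMIs against 1 and 0. *CG7882*, *Tret1-2* and *sut4* had 0 to 20 UMIs per library in oenocytes and were not tested either.

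In adipose tissue, 9 of the 10 transporters were tested, and 0 were called, as were 0 of 8425 genes (0%) with edgeR, while 1191 genes, among them 5 of the transporters, had an unadjusted p under 0.05. DESeq2 called 197 genes, 1 of them a transporter, *CG4797*. The median log2 fold change of the 9 was -0.63, against 0.01 over all genes.

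*CG4797* had 116 and 144 UMIs in control adipose nuclei and 568 and 92 UMIs in oenots>tsc1,tsc2 adipose nuclei. This was 68.6 and 59.8 CPM against 277 and 168 CPM. The groups did not overlap, in the direction opposite to that in oenocytes. The log2 fold change was 1.74 (SE 0.32, 95% interval 0.98 to 2.50), a 3.34-fold higher level, with an adjusted p of 0.134 by edgeR with Benjamini-Hochberg adjustment. It passed with DESeq2 (1.69, adjusted p 0.000835) and in edgeR without the filter on low counts (1.67, 0.00557) or with at least 10 counts in every library (1.76, 0.0435).

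Of adipose nuclei, 1.17% and 1.15% in the control and 5.30% and 3.81% in oenots>tsc1,tsc2 held at least 2 UMIs of *CG4797*, and 0.196% and 0.230% against 1.61% and 1.15% held at least 3. Thinned to 200 UMIs, the shares with any UMI were 1.03% and 0.842% against 3.67% and 3.23%. The adipose classes 0, 2 and 4 each had non-overlapping groups, with 81.5 and 60.8 CPM against 350 and 170 CPM in class 0, 63.2 and 69.1 CPM against 207 and 245 CPM in class 2 and 16.2 and 46.7 CPM against 129 and 153 CPM in class 4. The 7 oenocyte markers in these adipose nuclei summed to 871 and 611 CPM in the control and 527 and 950 CPM in oenots>tsc1,tsc2, which overlapped. *FASN3* had 403 and 356 UMIs against 52 and 90, or 238 and 148 CPM against 25.3 and 165 CPM, which also overlapped. The 6 male tract markers summed to 631 and 278 CPM against 1678 and 549 CPM, which overlapped as well, and their part in the result was not tested.

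The difference between the tissues was tested in a model with the library as a block. Relative to the effect in adipose tissue, the genotype effect on *CG4797* in oenocytes was lower by a log2 difference of -3.90 (SE 0.58, 95% interval -5.08 to -2.72), with an adjusted p of 8.20e-05 by edgeR with Benjamini-Hochberg adjustment. The gene was called under every alternative run for this contrast, with log2 differences from -4.41 to -3.18 and adjusted p from 7.71e-08 to 0.0234, and at -3.94 (0.000257) with the common floor. Of the 8 transporters in this contrast it was the 1 called, against 302 of 7535 genes (4.01%). In the control, oenocytes exceeded adipose tissue by 6.19-fold and 12.97-fold by these classes, and in oenots>tsc1,tsc2 the ratio was 0.524 and 0.908. Over the whole libraries, oenocytes held 65.3% and 79.9% of the *CG4797* UMIs in the control and 13.2% and 34.2% in oenots>tsc1,tsc2. In all nuclei together the gene was near no difference (log2 fold change -0.31, SE 0.36, adjusted p 0.766), as 424 and 807 UMIs stood against 699 and 155. Such sums and shares of UMIs also depend on the mix of tissues in a library. Adipose nuclei were 56.7% and 64.8% of control nuclei and 55.6% and 38.2% of oenots>tsc1,tsc2 nuclei. Oenocytes were 21.3% and 20.8% against 17.9% and 30.7%.

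**Figure D3:**
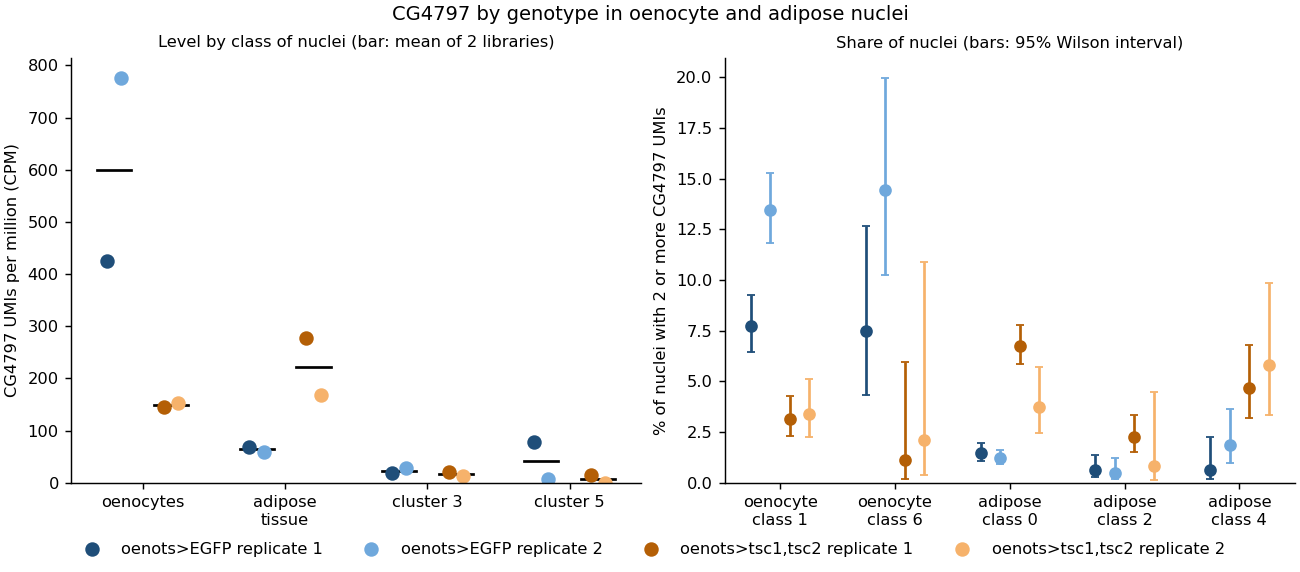
*CG4797* by genotype and tissue. On the left, the level (y axis, CPM, from 0) in each library with a bar at the mean of the 2 libraries: the control points at 425 and 775 CPM in oenocytes lie above those of oenots>tsc1,tsc2 at 145 and 153 CPM, and in adipose tissue the order is turned. On the right, the share of nuclei (%) with 2 or more UMIs in 2 oenocyte and 3 adipose classes, where bars are 95% Wilson intervals for counting error.

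The other transporters in adipose tissue had smaller values or wider errors. *CG10960* had 15174 and 22416 UMIs in the control and 12753 and 3212 in oenots>tsc1,tsc2, or 8975 and 9306 CPM against 6212 and 5881 CPM. The groups did not overlap, with a log2 fold change of -0.63 (SE 0.25) and an adjusted p of 0.330 by edgeR with Benjamini-Hochberg adjustment. With the common floor, the log2 fold change was -0.67 (adjusted p 0.327 by edgeR with Benjamini-Hochberg adjustment). It was lowest relative to the control in class 2, with 7980 and 8140 CPM against 4367 and 3212 CPM, and nearest to it in class 0, with 10578.5 and 10579.4 CPM against 8425 and 9084 CPM. *Tret1-2* (34 and 86 UMIs against 25 and 5, log2 fold change -1.41, SE 0.46, adjusted p 0.238) and *sut1* (50 and 67 against 30 and 5, -1.27, SE 0.40, 0.221) had lower values in both oenots>tsc1,tsc2 libraries. *Glut1* (-0.76, SE 0.28, adjusted p 0.302) and *CG1213* (-0.75, SE 0.32, 0.374) were lower in both as well, *Tret1-1* overlapped (-0.55, SE 0.40, 0.631), and *sut4* (1.27, SE 0.57, 0.391) and *CG7882* (0.52, SE 0.46, 0.701) had higher values from 3 to 46 UMIs per library.

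**Figure D4:**
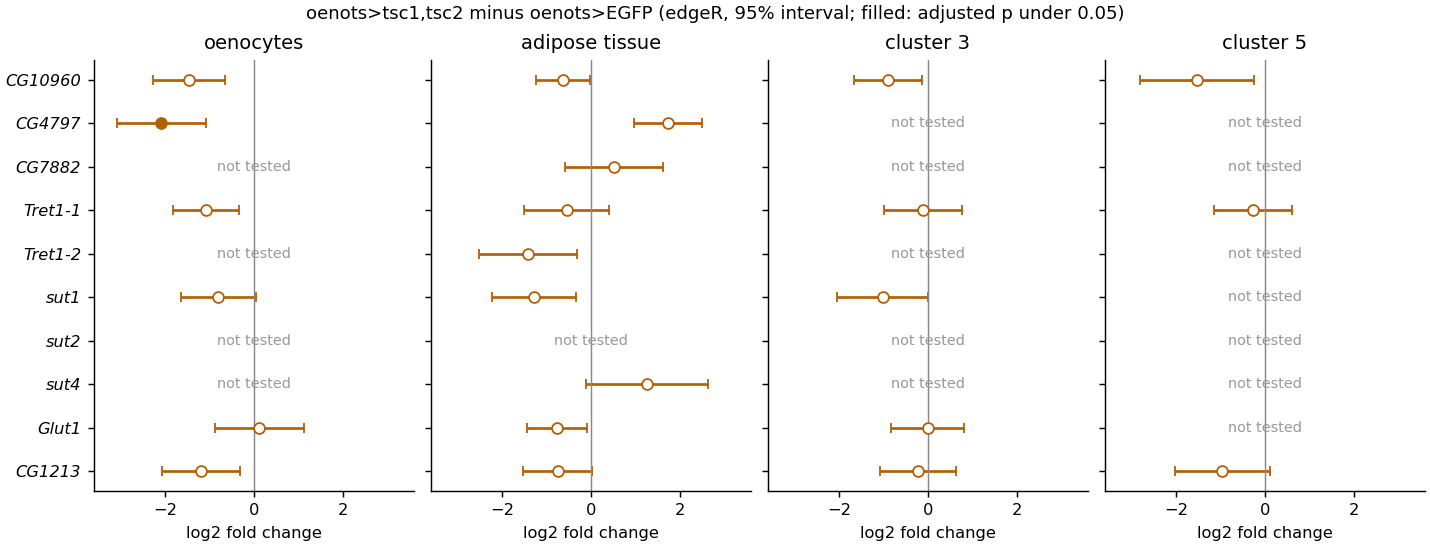
Log2 fold change of oenots>tsc1,tsc2 over oenots>EGFP (x axis) of each transporter (y axis) in 4 tissues, with 95% intervals from edgeR. The filled point, *CG4797* in oenocytes at -2.08, passed an adjusted p of 0.05, open points did not, and genes with too few counts are marked as not tested.

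In cluster 3, 0 of 5 transporters were called, against 12 of 5819 genes (0.206%) with edgeR, 383 genes at an unadjusted p under 0.05 and 15 genes with DESeq2, none of them a transporter. *CG10960*, with 355 and 357 UMIs against 231 and 109, had the lowest adjusted p of the 5 (log2 fold change -0.90, SE 0.35, 0.660). In cluster 5, 0 of 3 transporters and 0 of 2044 genes (0%) were called with edgeR, 174 genes had an unadjusted p under 0.05, and DESeq2 called 4 genes, none a transporter. The contrasts of oenocytes with these clusters called 0 of the 8 transporters, against 2.36% of genes for cluster 3 and 1.13% for cluster 5. With the common floor, *CG1213* was called in the contrast with cluster 3 (log2 difference -2.59, adjusted p 0.0456 by edgeR with Benjamini-Hochberg adjustment). In all nuclei, 0 of 10 transporters and 0 of 9546 genes (0%) were called with edgeR, 1456 genes and 4 transporters had an unadjusted p under 0.05, and DESeq2 called 381 genes, 1 of them a transporter (*CG10960*, -1.01, adjusted p 0.0231). Sums over all nuclei also carry the mix of tissues given above, which differed between the libraries.

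*CG7882* was also compared in the Malpighian tubule-like nuclei of both genotypes. In class 9 it measured 1577 and 2019 CPM in the control and 3158 and 2438 CPM in oenots>tsc1,tsc2, from 51, 28, 80 and 10 UMIs in 54, 26, 42 and 9 nuclei. The groups did not overlap, and the nuclei were too few for a test. By the deposited cluster 9 the control had 1593 and 987 CPM, so the value of its replicate 2 depended on how nuclei were classed.

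Other genes of sugar handling were listed with the transporters. Of 17 further SLC2-type transporter genes, 3 were tested in oenocytes and 9 in adipose tissue, and 0 were called in any tissue by edgeR. *CG1208*, the most abundant of them in adipose tissue, had 485 and 588 CPM there against 40.9 and 117 CPM in oenots>tsc1,tsc2 (log2 fold change -2.80, SE 0.59, adjusted p 0.140 by edgeR with Benjamini-Hochberg adjustment), and its groups did not overlap. Of 22 listed enzymes of trehalose, glycolysis and glycogen, 21 were tested in oenocytes and 1 was called, against 3.24% of all genes tested there. This was *GlyP*, glycogen phosphorylase, with 49.1 and 67.3 CPM in the control against 12.6 and 11.5 CPM (-2.35, SE 0.46, adjusted p 0.0439 by edgeR with Benjamini-Hochberg adjustment). Its p lay just under the threshold, and the alternatives were not followed for this gene. The median of the 21 enzymes was -0.53 in oenocytes, with 15 of them at values under 0, and 0.31 in adipose tissue, where 17 of 21 were at values over 0 and 0 were called, against medians of 0.01 over all genes in both tissues.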

How the data were processed

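The deposited counts are UMIs of each gene in each nucleus (whole numbers), which the authors made with Cell Ranger 3.1.0 on a pre-mRNA reference of FlyBase R6.29. They removed free RNA with SoupX, with the contamination set to a constant, and took out nuclei with extreme totals, so no doublet caller was run here. Clusters were the authors', from Seurat 3.1.2 and Harmony. Food was standard per the labels, while the study's methods for over-expression experiments add a high sugar diet. Coordinates are from an annotation of Release 6. The members and lists were chosen with earlier results of these data known.

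UMIs were summed per library and tissue and given as CPM with mean ± SD. Shares of nuclei were computed as deposited and after thinning each nucleus to 200 UMIs. All 25141 nuclei were classed by 20 nearest control nuclei in 30 principal components of 2000 variable genes (Python 3.11.15, scikit-learn 1.9.0, seed 1). The sums went into the quasi-likelihood test of edgeR 4.0.16 in R 4.3.3, with TMM factors, the default filter, Benjamini-Hochberg adjustment over all genes and a threshold of 0.05, and SE was derived by dividing the log2 fold change by the root of F. The named genes were all 10 transporters, the 3 genes most like each with at least 200 control UMIs, and listed pathway genes that passed. *CG1208* and *Cyp4g1* were named after their values were seen.

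DESeq2 1.42.0, other filters, scalings and tissue calls, the replicate number as a block and each library left out were alternatives. The common floor and the deposited tissue calls in the interaction were chosen after seeing the data. A floor is the smallest UMI number at which no library has fewer nuclei than at 1 UMI more. The test was checked on simulated counts in which 200 genes differed by a log2 change of 2. It found 37% of these in oenocytes (5950 genes), 47% in adipose tissue (8140 genes), 67% in cluster 3 (5465 genes), 67% in cluster 5 (1918 genes) and 19.5% in all nuclei (9314 genes). Libraries of a group differed beyond sampling noise and were counted separately.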

Additional observations from a re-analysis of the deposited data

Results flagged for a closer look

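The genotype effect on *CG4797* differed between tissues of the same libraries. In oenocytes its level was 425 and 775 CPM in the control and 145 and 153 CPM in oenots>tsc1,tsc2, and in adipose tissue 68.6 and 59.8 CPM against 277 and 168 CPM. The test of the difference itself, oenocytes minus adipose tissue with the library as a block, gave -3.90 on the log2 scale with an adjusted p of 8.20e-05 by edgeR with Benjamini-Hochberg adjustment. The groups did not overlap in oenocyte classes 1 and 6 and in adipose classes 0, 2 and 4, nor in the shares of nuclei with 3 or more UMIs in either tissue. These classes and shares are cuts of the same UMIs and add no separate support. *CG10960* and *CG1213* also had non-overlapping groups in each of these classes, with lower values in oenots>tsc1,tsc2. The cause of the difference in *CG4797* was not tested.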

How the results depend on the processing

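The call of *CG4797* in oenocytes depended on the processing. Its log2 fold change of -2.08 was -2.003 with library totals, no longer past the threshold. With 1 library left out it was -2.49 to -1.59, the lowest without oenots>EGFP replicate 1 and the highest without oenots>EGFP replicate 2. The call did not hold in all of these fits, as given above. In adipose tissue *CG4797* was called with DESeq2 (1.69), with no filter on low counts (1.67) and with at least 10 counts in every library (1.76). The cause was not tested.

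The counts of calls moved with the tool and the filter more than those of single transporters. In oenocytes, 204 genes became 417 with DESeq2, 717 with no filter and 427 with at least 10 counts in every library, and the 1 transporter became 3, 4 and 4, 0 with library totals and 2 with the common floor per nucleus. In adipose tissue, 0 genes became 197 with DESeq2, 10 with library totals, 366 with no filter and 58 with at least 10 counts, and 0 transporters became 1, *CG4797*, with all but library totals. In cluster 3, 12 genes became 7 with library totals, 33 with no filter and 6 with at least 10 counts. In cluster 5, 0 genes became 4 with DESeq2 and 48 with no filter. In all nuclei, 0 genes became 381 with DESeq2, 37 with no filter and 58 with at least 10 counts, and 1 transporter was called with DESeq2. The contrast of oenocytes with cluster 5 called 172 genes with DESeq2 in place of 85, and that with cluster 3 called 1 transporter, *CG1213*, with the common floor.

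With 1 library left out, the genes called ranged from 56 to 254 in oenocytes (transporters 0 to 1), 0 to 148 in adipose tissue, 1 to 197 in cluster 3, 17 to 71 in cluster 5 (transporters 0 to 1, *CG10960* without oenots>tsc1,tsc2 replicate 1), 0 to 150 in all nuclei, and 54 to 430, 11 to 299 and 11 to 173 in the contrasts of oenocytes with adipose tissue, cluster 3 and cluster 5. In the last of these 0 to 1 transporters were called, *Glut1* without oenots>tsc1,tsc2 replicate 1, where cluster 5 held 0 of its UMIs. A library left alone was assumed to vary like the others. Transporters that were not called changed sign in some of these fits: *Glut1* in oenocytes (-0.40 to 0.56), *Tret1-1* (-0.51 to 0.23), *Glut1* (-0.23 to 0.27) and *CG1213* (-0.50 to 0.13) in cluster 3, and *CG4797* (-0.62 to 0.0261) and *CG7882* (-0.84 to 0.67) in all nuclei.

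The replicate numbers of the labels do not state a pairing. Deviations of same-numbered libraries correlated at 0.25 in oenocytes and 0.33 in adipose tissue, with 2 pairs. With the replicate block, 444 genes were called in oenocytes (transporters 2, *CG4797* and *CG10960*), 47 in adipose tissue, 76 in cluster 3 and 55 in all nuclei. The interactions have the library as a block, since the tissues of a library come from the same flies. With no replicate block they called 35, 9 and 9 genes against adipose tissue, cluster 3 and cluster 5, and *CG4797* stayed called at -3.92.

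Over control tissues, the log2 ratio of the highest tissue to the mean of the other 3 was 1.06 for *Tret1-1*, 1.57 for *sut1*, 0.12 for *Glut1* and 0.93 for *CG1213*. It was 1.22, 1.78 and 1.06 for *Tret1-1*, *sut1* and *CG1213* with TMM factors, 1.23, 1.34 and 1.04 with equal weight per nucleus and 1.16, 1.44 and 1.03 with nuclei thinned to 200 UMIs, 1.16 for *Tret1-1* and 0.57 for *CG1213* with the common floor, and 1.56 for *sut1* without cluster 8. *Glut1* turned to -0.0221 with equal weight per nucleus and ranged from -0.00421 to 0.29 over single libraries. The joint Leiden clustering, at a resolution of 0.3 chosen after its clusters were seen, put clusters 3 and 5 together and was not run for them. With 2 libraries per genotype and 2267 nuclei in the smallest, small differences were not detectable at this depth, and many large ones were missed too. Of simulated log2 changes of 2, 37% were found in oenocytes, 47% in adipose tissue and 19.5% in all nuclei, against 67% in clusters 3 and 5.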
